A study of Mus musculus with 80 samples.

Results

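The untreated frozen livers of a mouse toxicology series were compared across its 2 animal studies. They were chosen by their labels as every frozen liver at a dose of 0, and they are 10 of the 80 libraries of the series, 4 from the study of di(2-ethylhexyl) phthalate (DEHP, a plasticizer) and 6 from the study of DCA (dichloroacetic acid, formed when drinking water is chlorinated). The whole series holds frozen and formalin-fixed, paraffin-embedded (FFPE) liver of control and treated mice.

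The controls of the DEHP study are animals 32A, 45C, 63A and 75A, which received feed with 0 ppm DEHP for 7 days and whose livers were collected in 2013. The controls of the DCA study are animals 3, 4, 5, 6, 7 and 8, which received drinking water with 0 g/L DCA and whose livers were collected in 1994; the length of that exposure is not given in the sources used here. All 10 were male B6C3F1 mice, the first-generation hybrid of C57BL/6 and C3H mice, labelled as 4 weeks old. Each library came from frozen tissue of mixed lobes of 1 animal. Study, collection year, storage time, diet and water vehicle, and sequencing run all change together between the groups, so they cannot be told apart in any difference given here. Run here means the prefix of a library's column name, read as a sequencing run, which the labels do not state. All DCA-study controls share 1 prefix. The DEHP-study controls carry 2 others, 32A and 75A the first, 45C and 63A the second.

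The liver of a male mouse is set by programs that vary between animals kept in the same room. Pulses of growth hormone switch on male genes such as the major urinary proteins (Mup) and hold back female cytochrome P450 genes; feeding, fasting and the daily clock switch fat synthesis, fat oxidation and glucocorticoid targets; and the receptors CAR, PXR and AhR raise drug-metabolizing enzymes when diet or bedding holds a ligand. Young livers still carry dividing hepatocytes and fetal growth transcripts, which fade as the animal matures.

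Of 12534 genes tested, 4310 (34.4%) differed between the studies, 2094 (16.7%) higher and 2216 (17.7%) lower in the DCA-study controls (edgeR's quasi-likelihood test, Benjamini-Hochberg adjusted p under 0.05). A difference of more than 2-fold passed for 383 genes (3.06%), 108 of them higher (0.862%) and 275 lower (2.19%). All libraries of one study lay beyond all of the other for 3110 genes (24.8%). The first principal component of log2 CPM (read counts scaled to a common library size with the trimmed mean of M values) held 61.8% of the variance and separated the studies. Rank correlations between libraries, computed across genes that are not independent of each other, ran from 0.967 to 0.985 within the DEHP study, from 0.978 to 0.989 within the DCA study and from 0.935 to 0.957 between them. Depth was 16631052 to 27773556 counts in the DEHP study and 14539642 to 16890024 in the DCA study, with 0.0939% to 0.303% and 0.329% to 1.57% of them in the ribosomal RNA gene Rn45s. The part of RNA quality and of ribosomal RNA depletion in the differences was not tested. In these bulk samples, fewer cells of a type and less RNA per cell cannot be told apart.

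The main tables of the studies do not list the same gene symbols. The authors' estimated count tables share 16554 gene symbols, 2323 symbols stand only in the DEHP table and 1118 only in the DCA table, and 633 pairs among these name 1 RefSeq gene by an older and a newer symbol. A second set of deposited count tables was therefore set beside the comparisons of frozen livers; the FFPE values rest on the estimated counts alone. Of the 3951 called genes that could be tested there, 3713 had the same sign and 238 the other, and 2793 of the 12534 genes (22.3%) were called the same way in both sets (the second tables alone called 4239 of 12757, 33.2%), 1454 higher (11.6%) and 1339 lower (10.7%). Large differences often depended on the tables: of 209 genes past 2-fold that the second tables could test, 95 lay more than 1 log2 unit apart and 137 were called the same way. Among the 12 largest rises named by rule, 9 were called the same way in both sets; among the 12 largest falls, 2 were, Moxd1 and Mup11. The amino acid transporter Slc38a6 shows how far the tables can part. It was at 586, 389.9, 377 and 417 CPM in the DEHP-study controls (in the order 32A, 45C, 63A and 75A, kept in all lists of values) and 5.43 to 8.13 CPM, median 6.8, in the DCA-study controls, a log2 fold change of -6.02 ± 0.15, and at 0.07 in the second tables (adjusted p = 0.724). The clock receptor Rora (2.53 against -0.17, adjusted p = 0.296) and the thymidylate synthase Tyms (-3.20 against 0.42, adjusted p = 0.0335) changed sign in the same way. In the rest of the text, statements of higher or lower between the studies hold in both sets of tables unless an exception is named. CPM values, summed lists and splits between animals are those of the estimated counts unless the second tables are named. Fold changes are those of the estimated counts too, DCA study minus DEHP study, on the log2 scale with their standard errors (SE).

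**Figure D1:**
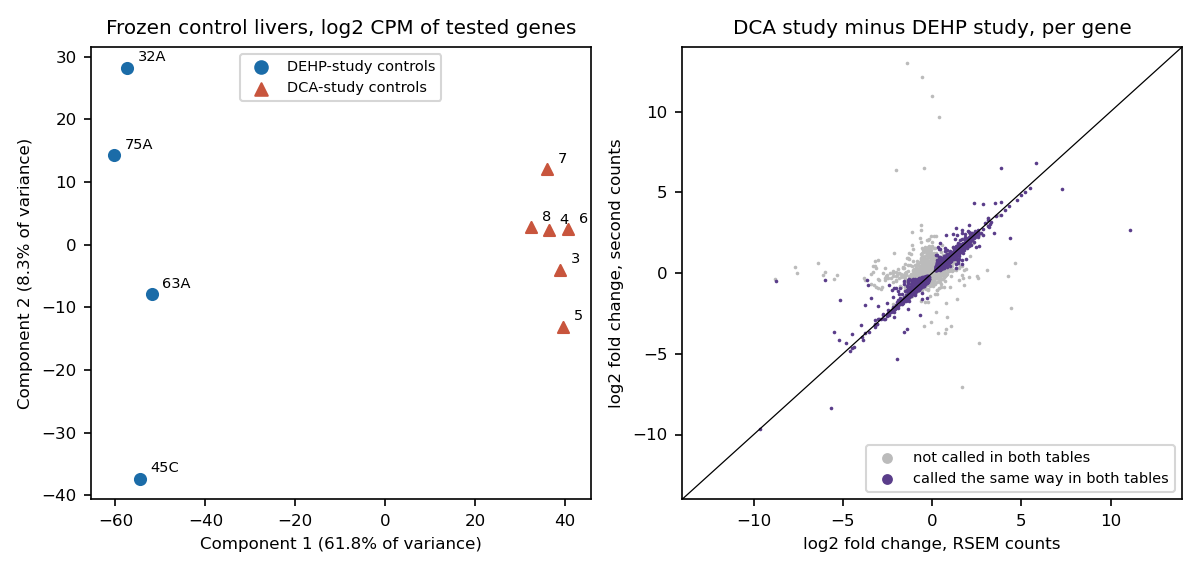
Left, the first and second principal components of log2 CPM over the tested genes, 1 point per liver (blue circles, DEHP study; red triangles, DCA study); the DCA-study controls sit together and the DEHP-study controls spread along the second component, 45C lowest. Right, the log2 fold change of each gene in the estimated counts (x) and in the second count tables (y), purple where called the same way in both; most genes follow the diagonal, and a set of grey points along the horizontal axis is far from 0 in the estimated counts only.

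Drug-metabolizing enzymes were higher in the 1994 livers. Of 20 tested targets of the nuclear receptors CAR and PXR, 13 were higher and 0 lower (12 and 0 in both sets of tables), with a median log2 fold change of 0.94 beside 0.00 over all genes. The share called was 65%, beside 34.4% of all genes. Cyp3a44 is also counted among the female-biased genes and Por among the clock output genes. Cyp3a11, the main PXR-induced P450 of mouse liver (chr5:145854426-145879964, minus strand, protein coding), was at 296, 307, 159 and 116 CPM in the DEHP-study controls and 1039 to 2742 CPM, median 1917, in the DCA-study controls. Every DCA-study liver stood above every DEHP-study liver, and the fold change was 3.13 ± 0.34 (adjusted p = 4.8e-05; 3.27 in the second tables). The CAR target Cyp2c29 was at 382, 313, 291 and 177 CPM against 691 to 1594 CPM, median 1131, again without overlap (1.98 ± 0.26, adjusted p = 0.00016). Por, the reductase that passes electrons to all microsomal P450 enzymes, was at 35, 35.4, 27.7 and 43.5 CPM against 96.8 to 141 CPM, median 108, a fold change of 1.68 ± 0.14 (adjusted p = 4.12e-06). These are differences of moderately to highly expressed genes with no shared values between the studies.

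The classic CAR marker Cyp2b10 was low in both studies. It had 3 reads in all 4 DEHP-study controls together, all in 45C, and 222 reads in the 6 DCA-study controls, where it ran 0.139 to 4.84 CPM, median 2.38. Animal 8 was the lowest of these and close to 45C (0.139 against 0.113 CPM). The ratio of summed reads was 68.8 (95% exact counting interval 23.2 to 336, which covers counting error only; adjusted p = 0.00112). The AhR targets Cyp1a1 and Cyp1a2, which metabolize planar aromatic compounds, were also higher. Cyp1a2 was at 193, 187, 261 and 132 CPM against 431 to 702.1 CPM, median 597 (1.60 ± 0.19, adjusted p = 7.15e-05), and Cyp1a1, at 0.0511, 0.151, 0.316 and 0.326 CPM against 0.677 to 1.6 CPM, median 1.08, differed by 2.39 ± 0.42 (adjusted p = 0.00128). Groups overlapped for neither gene. Of 7 tested AhR targets, 2 were higher, these genes, and 1 lower (2 and 0 in both sets), 42.9% called beside 34.4% of all genes.

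Sex-biased genes of the liver differed in both directions. Of 27 tested male-biased genes, 4 were higher and 11 lower (3 and 11 in both sets). The share called was 55.6%, beside 34.4% of all genes. Mup3, Mup20 and Moxd1, given below, are among the lower ones. The lower count was 7 with 32A and 75A alone as DEHP-study controls. Of 25 female-biased genes in both main tables, 13 had enough reads to be tested, and 7 of these were higher and 2 lower (6 and 1). The share called was 69.2% of those tested, beside 34.4% of all genes. With no filter on low counts 10 were higher. Genes near 0 in the DEHP-study controls passed the filter only through reads in the DCA study. The count of higher genes thus depends in part on the filter. Cyp2c40, a female-biased arachidonic acid P450, was at 0.92, 0.527, 0.593 and 2.28 CPM against 48.9 to 421 CPM, median 104 (7.30 ± 0.84, adjusted p = 6.73e-05; 5.22 in the second tables). Cyp3a44, a female-biased P450 of the Cyp3a cluster, was at 0.204, 0.113, 0.119 and 0.522 CPM against 4.43 to 10.6 CPM, median 7.1 (5.00 ± 0.41, adjusted p = 3.73e-06). No DCA-study liver came near a DEHP-study liver for either gene. The female-biased P450 gene Cyp2b9 had 3 reads in the DEHP-study controls together and 174 in the DCA study (ratio 53.9, interval 18.1 to 264, again for counting error only); the 3 reads were in 63A (0.119 CPM), which stood above DCA-study animal 8 (0.0697 CPM). All 10 animals had the transcripts of a male: Xist, which silences an X chromosome in females, stayed at or below 0.358 CPM in the DEHP study and 0.403 CPM in the DCA study, and the Y-linked helicase Ddx3y was at 149, 148, 125 and 133 CPM against 80.4 to 95.8 CPM, median 88.9, lower in the DCA study (-0.64 ± 0.08, adjusted p = 8.99e-05).

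The major urinary proteins, pheromone carriers secreted by male liver into urine, were highly abundant and differed between the studies. Their summed level over 19 genes was taken in the estimated counts alone. It was 76136 to 116288 CPM in the DEHP-study controls and 13042 to 19798 CPM in the DCA-study controls. Of the 19 genes, 14 were lower and 3 higher (12 and 2 in both sets). Over all genes 17.7% were lower and 16.7% higher. Mup20, the protein darcin that attracts females (chr4:62050234-62054158, minus strand, protein coding), was at 4308, 8249.6, 4303 and 6970.5 CPM against 138 to 773 CPM, median 419.7 (-3.76 ± 0.45, adjusted p = 8.38e-05). Mup3 was at 8182, 6862, 5997 and 6467 CPM against 2680.4 to 3977 CPM, median 3386, a smaller difference of -1.04 ± 0.13 (adjusted p = 0.000131). Mup7 was at 17264, 21479, 19233 and 20486 CPM against 879 to 4235 CPM, median 2369 (-3.03 ± 0.44, adjusted p = 0.000345; -2.06 in the second tables). None of these 3 genes overlapped between the studies. Per unit length, Mup15 was among the leading genes of the DEHP-study controls with a median of 38350 FPKM, a level scaled for depth and gene length (28291 to 39832), above albumin at 21768 (18935 to 27656), and in the DCA-study controls albumin led at 36922 FPKM (30884 to 40971) with Mup15 at 4748 (1996 to 8722). Mup genes are near-identical copies whose reads a counter can divide in more than one way, so values of single members are uncertain: the fall of Mup15 (-3.15 ± 0.44, adjusted p = 0.000281) was not called in the second tables (-0.85, adjusted p = 0.0797). Mup6 went the other way, 3.68, 3.62, 4.19 and 3.85 CPM against 38 to 81.1 CPM, median 49.9 (3.85 ± 0.25, adjusted p = 3.47e-07).

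The largest fall of a single gene present in both sets was that of Moxd1, a male-biased relative of dopamine beta-hydroxylase (chr10:24223517-24302790, plus strand, protein coding). It was at 38, 134, 153 and 288 CPM in the DEHP-study controls and 0.0615 to 0.279 CPM, median 0.199, in the DCA-study controls (-9.66 ± 0.61, adjusted p = 2.64e-07; -9.65 in the second tables). Liver 32A was the lowest of the DEHP study and stood far above every DCA-study liver. In the treated frozen livers of the series, which took no part in the choice of the gene, Moxd1 was under 1 CPM in all 18 of the DCA study and between 1.46 and 50.0 CPM in all 12 of the DEHP study. Every frozen liver of the DEHP study, treated or not, thus stood above every frozen liver of the DCA study.

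**Figure D2:**
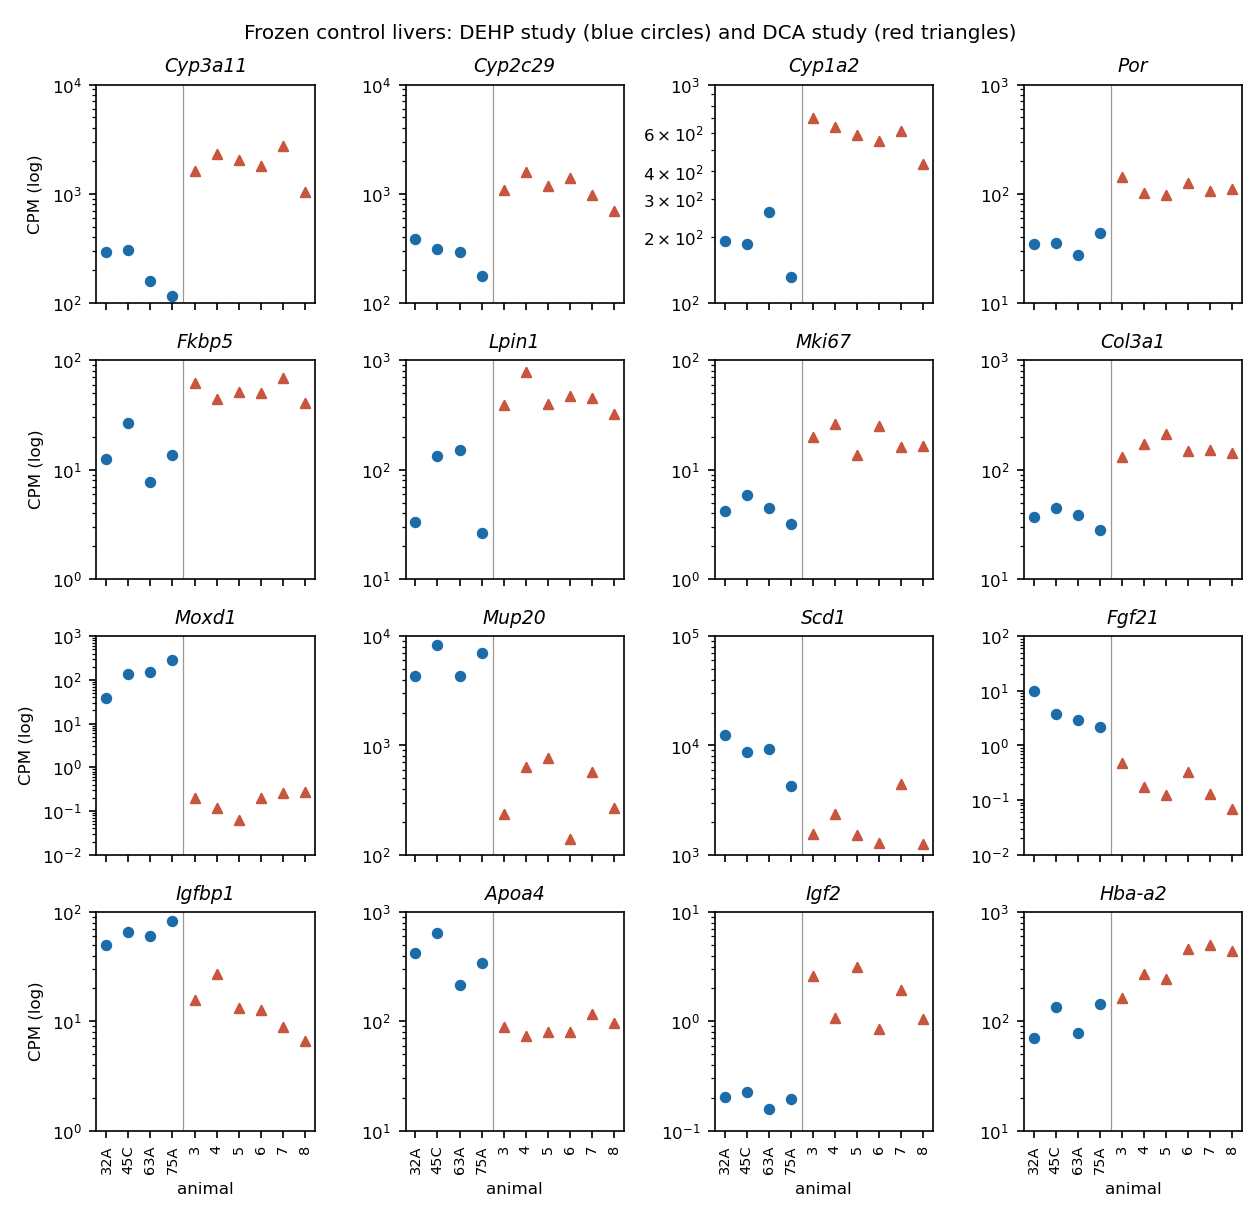
CPM on a log axis of 16 genes in each frozen control liver (blue circles, DEHP-study animals 32A to 75A; red triangles, DCA-study animals 3 to 8). Points above the line of the other group in every animal show genes without overlap, such as Cyp3a11 (116 to 307 against 1039 to 2742 CPM) and Moxd1 (38.0 to 288 against 0.0615 to 0.279 CPM); Scd1 overlaps through animals 75A and 7.

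Several glucocorticoid targets were higher in the DCA study. Of 15 tested genes induced by the glucocorticoid receptor, 8 were higher and 0 lower in both sets of tables, with a median of 0.91. The share called was 53.3%, beside 34.4% of all genes. The count of higher genes was 4 with 45C and 63A alone as DEHP-study controls. The mean log2 CPM over the list overlapped between the studies. Relative to the mean of all frozen controls it was 0.29 in 45C and 0.016 to 0.63 in the DCA study. Fkbp5, a chaperone of the receptor and one of its most direct targets, was at 12.4, 26.7, 7.63 and 13.5 CPM against 41.1 to 68.7 CPM, median 50.7 (1.81 ± 0.29, adjusted p = 0.000772). Tsc22d3, the anti-inflammatory mediator GILZ, was at 67.6, 63.8, 87.5 and 40.9 CPM against 87.7 to 228 CPM, median 170.2 (1.36 ± 0.28, adjusted p = 0.00359). The lowest DCA-study animal for Tsc22d3, animal 8, was level with the highest DEHP-study animal, 63A. Lpin1, a phosphatidate phosphatase induced by glucocorticoids and fasting, was at 32.8, 134, 149.7 and 26.3 CPM against 325 to 777 CPM, median 427 (2.45 ± 0.50, adjusted p = 0.00305), with 45C and 63A above 32A and 75A in the DEHP study. The transcription factor Zbtb16 followed with 1.53 ± 0.30 (adjusted p = 0.00253). Other targets of the list gave no call, among them Pck1, the gatekeeper of gluconeogenesis, at 1213, 1374, 1170.5 and 2124 CPM against 1399 to 3041 CPM, median 2057 (adjusted p = 0.0858).

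Genes of the daily clock were called in part. Of 14 tested core clock genes, 4 were higher and 2 lower (42.9% called, beside 34.4% of all genes; 2 and 2 in both sets), and 2 were higher with 45C and 63A alone as DEHP-study controls. The summed core clock list was 388 to 468 CPM against 522 to 661 CPM in the estimated counts. That sum includes Rora, whose rise the second tables did not show. Of 13 clock output genes 4 were higher and 0 lower (3 and 0), 30.8% called beside 34.4% of all genes. The summed clock output list overlapped, at 297 to 412 CPM against 397 to 887 CPM. Arntl, the activator BMAL1, was at 32, 31.6, 34.2 and 32.2 CPM against 32.5 to 41.3 CPM, median 34.6, with 0.13 ± 0.08 (adjusted p = 0.219; 0.24 in the second tables, adjusted p = 0.0357), and its partner Clock differed by -0.01 ± 0.11 (adjusted p = 0.934). Per1, the repressor that glucocorticoids also induce, was at 2.5, 4.45, 8.38 and 0.717 CPM against 7.25 to 39.8 CPM, median 13.4; 63A overlapped animal 8, and the difference was 2.19 ± 0.58 (adjusted p = 0.0134), not called with 45C and 63A alone as DEHP-study controls (1.55, adjusted p = 0.0889). Usp2, a deubiquitinase under clock control, was at 0.715, 1.32, 0.83 and 0.978 CPM against 3 to 13 CPM, median 4.86, without overlap (2.59 ± 0.42, adjusted p = 0.000798). The repressor Nr1d2 was lower, at 44.6, 32.3, 19.2 and 51.4 CPM against 14.4 to 21.1 CPM, median 18.2, with 63A inside the range of the DCA study (-1.04 ± 0.22, adjusted p = 0.00364; not called with 45C and 63A alone, -0.53, adjusted p = 0.0649). The hour of collection is not given in the sources used here, and its part in these differences was not tested. The promoter of Per1 is shown because the E-box CACGTG, the site that BMAL1 and CLOCK bind, stands in it (RefSeq, GRCm38.p6; capitals mark the E-box, chr11:69098699-69098998, plus strand, 250 bases before to 50 after the annotated start).

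Per1: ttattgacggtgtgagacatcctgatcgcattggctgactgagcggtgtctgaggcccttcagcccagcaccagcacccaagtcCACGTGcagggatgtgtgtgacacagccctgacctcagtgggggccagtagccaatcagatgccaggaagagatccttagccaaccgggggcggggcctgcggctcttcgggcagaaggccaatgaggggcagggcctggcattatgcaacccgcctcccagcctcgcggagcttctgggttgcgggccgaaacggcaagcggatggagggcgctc

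The letters CACGTG, which read the same on both strands, stood in 8 of 24 matched promoters of the core clock and output lists (33.3%; 5 genes had no entry) and in 8.09% of 27025 promoters of the same length. They also stood in 5 of 13 matched promoters of the glucocorticoid list (38.5%; 3 genes had no entry). A match is a description of the sequence and not a bound site.

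Proliferation genes were higher in the 1994 livers at low levels. Of 27 tested cell cycle genes, 17 were higher and 2 lower, and 17 were higher and 0 lower in both sets of tables, with a median of 1.05. The share called was 70.4%, beside 34.4% of all genes. For 17 of the 27 the studies did not overlap, beside 24.8% of all genes. The summed level of the whole list did overlap, at 124 to 154 CPM against 133 to 196 CPM. That sum includes Tyms, which was lower in the estimated counts only. Mki67, the antigen Ki-67 of cycling cells (chr7:135689784-135716361, minus strand, protein coding), was at 4.19, 5.84, 4.43 and 3.19 CPM against 13.6 to 26.4 CPM, median 18.2 (2.14 ± 0.23, adjusted p = 3.4e-05). Foxm1, which drives genes of mitotic entry, was at 0.204, 0.339, 0.474 and 0.196 CPM against 1.23 to 2.22 CPM, median 1.6 (2.36 ± 0.30, adjusted p = 0.000142). Top2a, the topoisomerase that untangles replicated chromosomes, was at 3.48, 4.45, 2.53 and 1.5 CPM against 6.71 to 12.3 CPM, median 8.69 (1.58 ± 0.26, adjusted p = 0.00082). All 6 DCA-study livers stood above all 4 DEHP-study livers for the 3 genes. Foxm1 passed the filter on low counts only through its reads in the DCA study. With no filter 20 cell cycle genes were higher. The mitotic genes Ccnb2 (1.38 ± 0.23), Cdc20 (2.39 ± 0.56) and Cdk1 (1.59 ± 0.25) stood near 1 CPM; in a fit of all 40 frozen libraries the call of Ccnb2 was lost (1.38, adjusted p = 0.0629).

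Their promoters are shown because these 3 genes moved together and carry the paired letters described for genes of late cell cycle: the CCAAT box bound by NF-Y and the cell cycle homology region TTTGAA. Capitals mark CCAAT, or ATTGG where it lies on the other strand, and TTTGAA (RefSeq, GRCm38.p6, all on the minus strand, 5′ to 3′ of the gene: Ccnb2 at chr9:70421505-70421804, Cdc20 at chr4:118437294-118437593, Cdk1 at chr10:69352863-69353162).

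Ccnb2: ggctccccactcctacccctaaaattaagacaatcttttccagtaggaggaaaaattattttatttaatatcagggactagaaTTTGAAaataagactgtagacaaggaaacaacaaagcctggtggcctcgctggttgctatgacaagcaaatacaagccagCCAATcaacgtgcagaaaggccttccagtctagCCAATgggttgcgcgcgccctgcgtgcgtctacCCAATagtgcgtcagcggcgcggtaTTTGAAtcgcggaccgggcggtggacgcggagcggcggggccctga

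Cdc20: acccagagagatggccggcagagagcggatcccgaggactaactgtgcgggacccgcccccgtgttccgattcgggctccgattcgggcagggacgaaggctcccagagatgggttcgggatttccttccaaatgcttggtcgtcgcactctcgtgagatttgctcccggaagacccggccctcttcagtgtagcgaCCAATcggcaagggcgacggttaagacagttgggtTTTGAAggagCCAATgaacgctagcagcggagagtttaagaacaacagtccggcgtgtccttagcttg

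Cdk1: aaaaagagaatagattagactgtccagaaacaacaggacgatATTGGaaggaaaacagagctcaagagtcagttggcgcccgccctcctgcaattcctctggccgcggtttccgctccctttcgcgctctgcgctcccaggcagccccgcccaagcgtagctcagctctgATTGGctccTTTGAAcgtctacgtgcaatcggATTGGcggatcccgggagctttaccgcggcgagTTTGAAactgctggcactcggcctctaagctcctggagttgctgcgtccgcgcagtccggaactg

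Searched on both strands, with no overlap between the motifs, both letter strings stood in 9 of 23 matched promoters of the cell cycle list (39.1%; 7 genes had no entry), in 8 of the 15 matched genes called in both sets (53.3%) and in 7.97% of 27025 promoters of the same length. CCAAT alone stood in 17 of the 23 (73.9%) and in 41.1% of all. The capitals describe these windows only and say nothing of factor binding in these livers.

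Transcripts of the growing liver accompanied the proliferation genes. Of 14 tested genes of postnatal growth, 6 were higher and 1 lower in both sets of tables, 50% called beside 34.4% of all genes. Mki67 and Top2a are counted in this list too. The fetal growth factor Igf2 (chr7:142650766-142666816, minus strand, protein coding) was at 0.204, 0.226, 0.158 and 0.196 CPM against 0.851 to 3.14 CPM, median 1.49 (3.13 ± 0.47, adjusted p = 0.00044; 2.92 in the second tables). The imprinted genes Mest, at 1.69, 1.43, 2.13 and 2.48 CPM against 4.5 to 6.77 CPM, median 5.83 (1.60 ± 0.18, adjusted p = 5.81e-05), and Peg3, a zinc finger protein expressed from the paternal allele (1.20 ± 0.22, adjusted p = 0.00185), were higher as well. None of the 3 genes overlapped between the studies. Igf2 passed the filter on low counts only through its reads in the DCA study, so the counts of this list depend in part on the filter. Of the imprinted long noncoding RNAs of the Dlk1 region, Meg3 was at 2.66, 1.05, 2.29 and 1.37 CPM against 4.32 to 9.68 CPM, median 6.92 (1.88 ± 0.29, adjusted p = 0.000546) and Rian at 1.02, 1.09, 1.26 and 0.456 CPM against 3.83 to 7.44 CPM, median 6.32 (2.55 ± 0.28, adjusted p = 4.53e-05). The oncofetal protein Igf2bp3 was listed at 0 in all 4 DEHP-study controls in the estimated counts, and the second tables gave 3.67, 3.35, 3.5 and 2.16 CPM there against 17.1 to 22.5 CPM (2.65, adjusted p = 1.95e-07). Alpha-fetoprotein (Afp), the classic fetal serum protein, was at 0.307, 1.17, 0.593 and 0.717 CPM against 0.605 to 1.64 CPM, median 1.06, and gave no call (0.68 ± 0.36, adjusted p = 0.167).

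Markers of cells other than hepatocytes differed by list. Of 20 tested markers of sinusoidal endothelium, 12 were higher and 0 lower (11 and 0 in both sets), with a median of 0.51. The share called was 60%, beside 34.4% of all genes. The summed level of the whole list was 530.0 to 647 CPM against 744 to 827 CPM. Stab2, the hyaluronan scavenger receptor of these cells, was at 122, 95.8, 108 and 105 CPM against 145 to 179 CPM, median 159.5 (0.58 ± 0.09, adjusted p = 0.000411), and Gpr182, an atypical chemokine receptor, at 5.67, 7.5, 7.39 and 6.26 CPM against 13.4 to 17.6 CPM, median 14.9 (1.19 ± 0.11, adjusted p = 1.48e-05). Both were apart in every animal. Of 20 stellate cell genes 5 were higher and 1 lower in both sets (30% called, beside 34.4% of all genes), and 3 of the 5 were collagens. Col3a1, a fibrillar collagen of soft tissue (chr1:45311538-45349706, plus strand, protein coding), was at 37.1, 44.9, 38.3 and 28.2 CPM against 131 to 212 CPM, median 149 (2.10 ± 0.16, adjusted p = 1.83e-06), and Col1a1 was at 2.76, 4.97, 3.91 and 2.93 CPM against 20.2 to 70.5 CPM, median 22.9, animal 5 standing highest (3.10 ± 0.40, adjusted p = 0.000167). Cyp26b1, a P450 that breaks down retinoic acid, was higher by 2.71 ± 0.24 (adjusted p = 7.83e-06).

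Of 19 Kupffer cell markers 6 were higher and 1 lower (4 and 1 in both sets; 36.8% called, near the share of all genes; 3 higher with 32A and 75A alone), among them the hemoglobin scavenger receptor Cd163 at 10.3, 11.8, 13.1 and 16.5 CPM against 21.5 to 35.5 CPM, median 24.9 (1.05 ± 0.16, adjusted p = 0.000477) and the growth factor receptor Csf1r (0.70 ± 0.15, adjusted p = 0.00415). The summed level of the whole Kupffer list overlapped, at 524 to 761 CPM against 569 to 799 CPM. Of 10 red blood cell genes 4 were higher and 0 lower in both sets (8 higher with the second tables alone). The share called was 40%, beside 34.4% of all genes. Hba-a2, an alpha globin, was at 70.5, 134, 79 and 144 CPM against 165 to 500.7 CPM, median 358, the lowest DCA-study animal 3 just above the highest DEHP-study animal 75A (1.70 ± 0.34, adjusted p = 0.00255). The summed red blood cell list was 369 to 449 CPM against 471 to 901 CPM, and the part of retained blood in the other differences was not tested. Of 28 secreted hepatocyte proteins 7 were higher and 1 lower (5 and 1 in both sets; 28.6% called, beside 34.4% of all genes; 3 higher with 32A and 75A alone and 11 with DESeq2), with a median of 0.10. Albumin (Alb) was at 56689.5, 42862, 47784 and 41296 CPM against 56970 to 76328 CPM, median 68904, 32A standing just under animal 3 (0.55 ± 0.12, adjusted p = 0.00523), and the calcium-binding serum protein fetuin-A (Ahsg) was higher by 0.89 ± 0.09 (adjusted p = 3.53e-05). Of 18 periportal genes 9 were higher and 2 lower (9 and 1), including Cps1, the entry enzyme of the urea cycle (0.74 ± 0.12, adjusted p = 0.000692). Of 20 pericentral genes 3 were higher and 3 lower (2 and 3). The shares called were 61.1% of periportal and 30% of pericentral genes, beside 34.4% of all genes.

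Some genes of lipid synthesis were lower. Of 21 tested genes of fatty acid and triglyceride synthesis, 1 was higher and 8 lower (1 and 6 in both sets), 42.9% called beside 34.4% of all genes. The lower count was 5 without 63A, 4 with 32A and 75A alone, and 13 with 45C and 63A alone. Scd1, the delta-9 desaturase that makes oleate (chr19:44394455-44407879, minus strand, protein coding), was at 12369, 8719, 9237 and 4236 CPM against 1244 to 4398 CPM, median 1529; 75A lay below animal 7, and the difference was -2.07 ± 0.38 (adjusted p = 0.00161). Pnpla3, the lipase-like protein of lipid droplets, was at 3.58, 13.9, 23.1 and 1.37 CPM against 0.196 to 1.66 CPM, median 0.863, with 75A inside the range of the DCA study (-3.53 ± 0.69, adjusted p = 0.00239; with 32A and 75A alone -1.44, adjusted p = 0.0844). Fatty acid synthase (Fasn), at 269.7, 1105, 1691 and 434 CPM against 337 to 647 CPM, median 464, gave no call (-0.86 ± 0.41, adjusted p = 0.119). Me1, the malic enzyme that supplies reducing power for this pathway, was lower (-1.05 ± 0.20, adjusted p = 0.00217).

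Of 22 tested genes of fasting and the receptor PPAR alpha, 6 were lower and 1 higher in both sets, a share called (31.8%) below that of all genes (34.4%), and 2 were lower without 32A, 3 without animal 3 and 3 with 45C and 63A alone. Fgf21, the hormone of fasting that this receptor induces (chr7:45613886-45615490, minus strand, protein coding), was at 9.76, 3.8, 2.89 and 2.22 CPM against 0.0697 to 0.471 CPM, median 0.152, apart in every animal (-4.40 ± 0.52, adjusted p = 7.89e-05). The omega-hydroxylase Cyp4a14 was at 136, 13.7, 0.711 and 10.7 CPM against 0.209 to 12.4 CPM, median 2.97 (-3.22 ± 1.05, adjusted p = 0.0329), a difference that rested on 32A: without that liver it was -0.95 (adjusted p = 0.424). The call of Cyp4a14 was also lost without any 1 of animals 3, 5, 6, 7 or 8 (adjusted p of 0.0535 to 0.0664, fold changes of -2.98 to -3.27). Plin2, the coat protein of lipid droplets, was lower without overlap, at 848, 385, 273 and 325 CPM against 176 to 239.8 CPM, median 193 (-1.19 ± 0.26, adjusted p = 0.00451). Of single secreted proteins, Igfbp1, which binds insulin-like growth factors, was lower without overlap, at 49.9, 65.4, 59.8 and 82.4 CPM against 6.55 to 27 CPM, median 12.9 (-2.20 ± 0.30, adjusted p = 0.000245), as was apolipoprotein A-IV (Apoa4), at 419, 637, 214 and 345 CPM against 73.4 to 117 CPM, median 84 (-2.18 ± 0.24, adjusted p = 4.8e-05). The iron hormone hepcidin (Hamp) was lower as well, at 248, 249, 174 and 104 CPM against 18 to 107 CPM, median 57.2, 75A overlapping animal 3 (-1.78 ± 0.41, adjusted p = 0.00618).

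Animals of the same study differed by whole programs, most visibly in the DEHP study. The median SD of log2 CPM over genes was 0.225 in the 4 DEHP-study controls and 0.188 in the 6 DCA-study controls, and an SD above 1 was reached by 240 and 184 genes. The SD was the larger one in the DEHP study for 58.3% of genes. A test of spread (limma on absolute deviations from the group mean) called 71 genes (0.566%; 1516, or 12.1%, at an unadjusted p under 0.05), and this count rested on single livers, falling to 3 without 63A, 4 without 45C, 6 without 75A and 8 without 32A. On simulated data the test found few of the genes given extra scatter, and part of its calls were unchanged genes. Among the genes of smallest p in the estimated counts were Mup11 and Mup9, both at an adjusted p of 0.00273 and more variable in the DCA study. The SD of Mup11 was 0.45 in the DEHP study and 1.85 in the DCA study (0.29 and 1.24 in the second tables). That of Mup9 was 0.20 and 1.71 (0.54 and 1.84 in the second tables). In the other direction Mmd2 had an SD of 1.02 in the DEHP study and 0.17 in the DCA study (adjusted p = 0.00284). For the heat shock protein Hsph1 the SD was 1.08 in the DEHP study and 0.26 in the DCA study (adjusted p = 0.0106).

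**Figure D3:**
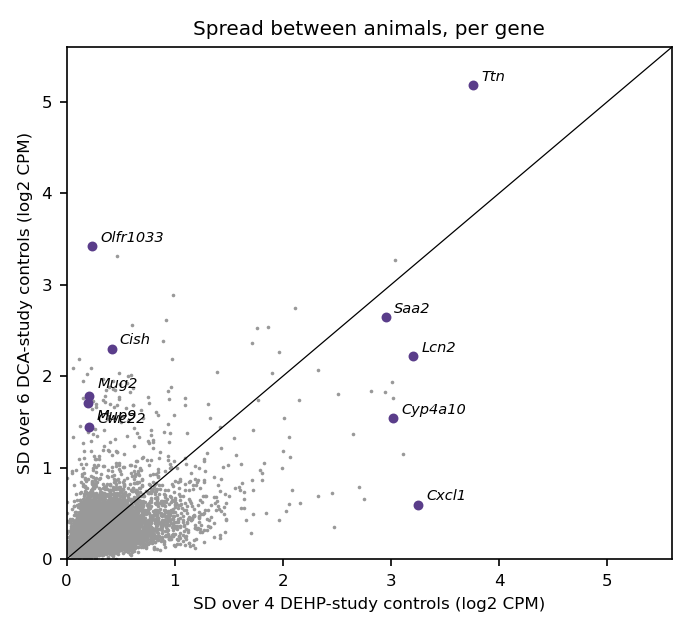
SD of log2 CPM of each tested gene over the 4 DEHP-study controls (x) and the 6 DCA-study controls (y), with the line of equal SD; purple points are named genes. Cyp4a10 and Cxcl1 lie far to the right (SD of 3.02 and 3.25 in the DEHP study), Cish, Mug2, Mup9, Cwc22 and Olfr1033 lie far up, and Ttn is extreme in both studies (3.76 and 5.18).

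Genes induced in fasting stood highest in animal 32A. Over the 22 genes of fasting and PPAR alpha its mean log2 CPM deviated by 1.41 from that of its study and that of 63A by -0.998. In the DCA study animal 8 deviated most, by -0.52. Cyp4a10, the most responsive target of the receptor (chr4:115518264-115533649, plus strand, protein coding), was at 245, 17.1, 1.38 and 11.8 CPM in the DEHP-study controls and at 20.2, 40.4, 9.72, 9.88, 7.02 and 1.6 CPM in animals 3 to 8. The thioesterase Acot1 was at 25.5, 2.07, 0.514 and 1.17 CPM, again highest in 32A, and the peroxisomal enzyme Ehhadh at 496, 159.7, 104 and 93.7 CPM. Liver 32A was at the same time low in acute phase genes (-1.08), in genes of the unfolded protein response (-0.75) and in glucocorticoid targets (-0.71). The FFPE tissue of the same 4 animals also had 32A highest, with Cyp4a10 at 149, 13.2, 6.08 and 7.29 CPM.

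Animals 45C and 63A stood together in another set of genes. Heat shock genes deviated from the mean of their study by 0.86 in 45C and 0.59 in 63A, and by -0.65 in 32A and -0.81 in 75A. Hsph1, a chaperone of the HSP110 family, was at 44.3, 176, 134 and 40.8 CPM, the immediate early gene Jun at 4.5, 16.2, 13.8 and 3.91 CPM and the lipogenic regulator Thrsp at 21.7, 115, 165 and 17.8 CPM. Cxcl1, a chemokine that draws neutrophils, was at 0.92, 95.9, 112 and 6.65 CPM against 1.44 to 4.18 CPM, median 2.04, in the DCA study; it was called lower there (-4.49 ± 0.94, adjusted p = 0.00365), and not with 32A and 75A alone as DEHP-study controls (-0.62, adjusted p = 0.468). These 2 animals shared a run prefix. Of 349 genes (mean log2 CPM of at least 1) with a gap of at least 1 log2 unit between neighbouring DEHP-study livers, 39 set 45C and 63A above, 9 set 32A and 75A above, and 282 set 1 animal apart from the other 3. In the FFPE libraries, where 45C shared its run with 75A and not with 63A, Cxcl1 was at 1.39, 61.5, 68.8 and 3.71 CPM and Hsph1 at 37.7, 110.2, 79.3 and 28.5 CPM. All 5 genes that set 45C and 63A above by at least 2 log2 units kept that order in FFPE. Of all 10616 genes, 65.6% kept the split of their own largest gap. The part of the run in the pattern of 45C and 63A was not tested.

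Animal 45C alone was highest in genes of the unfolded protein response (a deviation of 0.73), in glucocorticoid targets (0.72) and in interferon response genes (0.53). Creld2, a secreted factor of endoplasmic reticulum stress, was at 13.5, 252, 62.9 and 61.2 CPM and the lumenal chaperone Hspa5 at 529, 3700.1, 1452 and 1421 CPM. Metallothionein 1 (Mt1), which binds zinc and is induced by stress hormones, was at 11.7, 205, 4.23 and 56.9 CPM. The DCA-study livers ran 36.1 to 162 CPM, median 103, for Creld2 and 9.73 to 41.5 CPM, median 18.6, for Mt1, and neither gene was called between the studies (adjusted p = 0.977 and 0.0963).

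**Figure D4:**
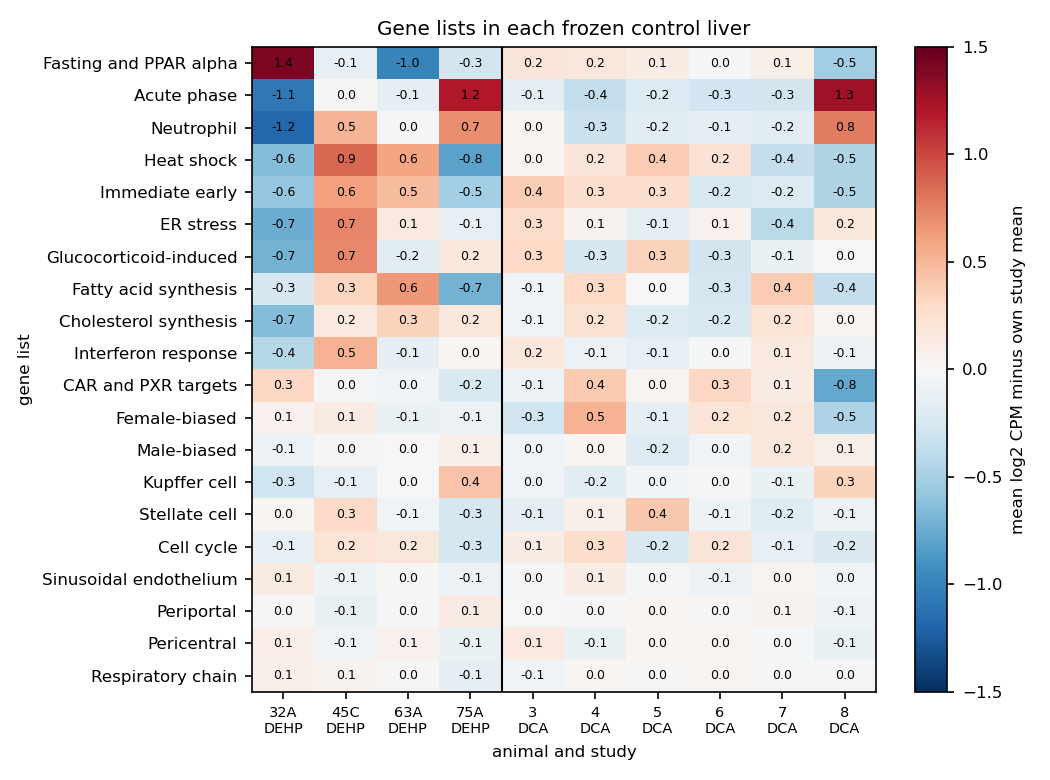
Mean log2 CPM of the tested members of 20 gene lists in each frozen control liver, minus the mean of the same list over the animals of its own study (red above, blue below; values printed to 1 decimal). The strongest cells are fasting and PPAR alpha in 32A (1.4), acute phase in 75A (1.2) and 8 (1.3), and neutrophil genes in 32A (-1.2).

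An acute phase response stood out in 1 animal of each study. Over 28 acute phase genes, 75A deviated by 1.21 from the mean of the DEHP study and animal 8 by 1.27 from that of the DCA study. Serum amyloid A1 (Saa1), the most inducible acute phase protein of mice (chr7:46740497-46742980, minus strand, protein coding), was at 55.8, 340.2, 167 and 3433 CPM in the DEHP-study controls, and in the DCA study at 1027 CPM in animal 8 and 33.9 to 101 CPM in the other 5. The siderophore-binding protein lipocalin 2 (Lcn2) was at 1.79, 25.8, 36.4 and 436 CPM, and at 199 CPM in animal 8 against 2.89 to 6.28 CPM in the others. The FFPE libraries gave the same animals, with Saa1 at 2358 CPM in 75A and 851 CPM in animal 8, and at most 249.9 CPM in the other 8. Beside it, the neutrophil list deviated by 0.70 in 75A and 0.78 in animal 8, and the Kupffer list by 0.42 and 0.34. The summed neutrophil list was 8.99 to 17.9 CPM in the DEHP study and 4.19 to 9.06 CPM in the DCA study, and its part in the acute phase pattern was not tested. Between the studies 1 of the 28 genes was higher and 1 lower in both sets (7.14% called, beside 34.4% of all genes). Saa1, at -2.19 ± 1.20, gave no call (adjusted p = 0.178). Animal 8 was also the lowest of its study in CAR and PXR targets (a deviation of -0.77), with Cyp3a11 at 1039 CPM and Cyp2c55, a CAR-induced P450, at 2.44 CPM against 6.39 to 10.4 CPM in the other 5.

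Growth hormone signalling genes differed between the DCA-study animals in opposed patterns. Cish, an inhibitor of cytokine signalling that STAT5 switches on within a growth hormone pulse, was at 0.874, 36.8, 5.54, 19.2, 0.575 and 8.92 CPM in animals 3 to 8. Bcl6, a repressor that STAT5 switches off, was at 93.5, 24.8, 57.9, 6.48, 77.5 and 11.2 CPM in the same order. The transcription factor Onecut1, which growth hormone raises, was at 4.5, 47.8, 7.32, 34.9, 2.43 and 19.3 CPM. Animals 4, 6 and 8 were thus above 3, 5 and 7 for Cish and Onecut1 and below them for Bcl6. The growth hormone signalling gene Socs2 did not follow this split. Its widest gap, 1.16 log2 units, set animals 3, 4, 6 and 8 above 5 and 7. For Cish the widest gap set 3 and 7 below the other 4, with animal 5 closer to animal 8. In the DEHP study Cish ran 2.56 to 5.1 CPM and Bcl6 9.32 to 42 CPM. These genes were chosen after their values were seen and carry no test here.

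Skeletal muscle transcripts stood in 3 frozen livers. The summed level of 9 muscle genes was 115 CPM in 45C and 1.37 to 2.61 CPM in the other DEHP-study controls, and in the DCA study it was 2352 CPM in animal 5, 121 CPM in animal 6 and 1.53 to 2.82 CPM in the other 4. Titin (Ttn), the spring of the sarcomere, was at 2.76, 403, 1.98 and 1.76 CPM and at 3.23, 1.53, 7734, 416, 1.53 and 2.51 CPM in animals 3 to 8, and skeletal alpha-actin (Acta1) at 0, 26.8, 0 and 0 CPM and at 0.134, 0.059, 557, 23.9, 0.319 and 0.139 CPM. The FFPE tissue of 45C had Ttn at 1.24 CPM and Acta1 at 0, while that of animals 3, 5 and 6 had Ttn at 777, 312 and 67.5 CPM. Desmin (Des), a muscle filament that stellate cells also express, was at 65.3 CPM in animal 5 against 1.92 to 4.84 CPM in the others. Col1a1 and Col1a2 were highest in animal 5 as well (70.5 and 91.5 CPM), while the remaining DCA-study livers stood at 20.2 to 32.6 and 43.6 to 54.5 CPM, above every DEHP-study control. Of 49 genes with a gap of at least 2 log2 units between neighbouring DCA-study livers, 27 set animal 5 above.

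**Figure D5:**
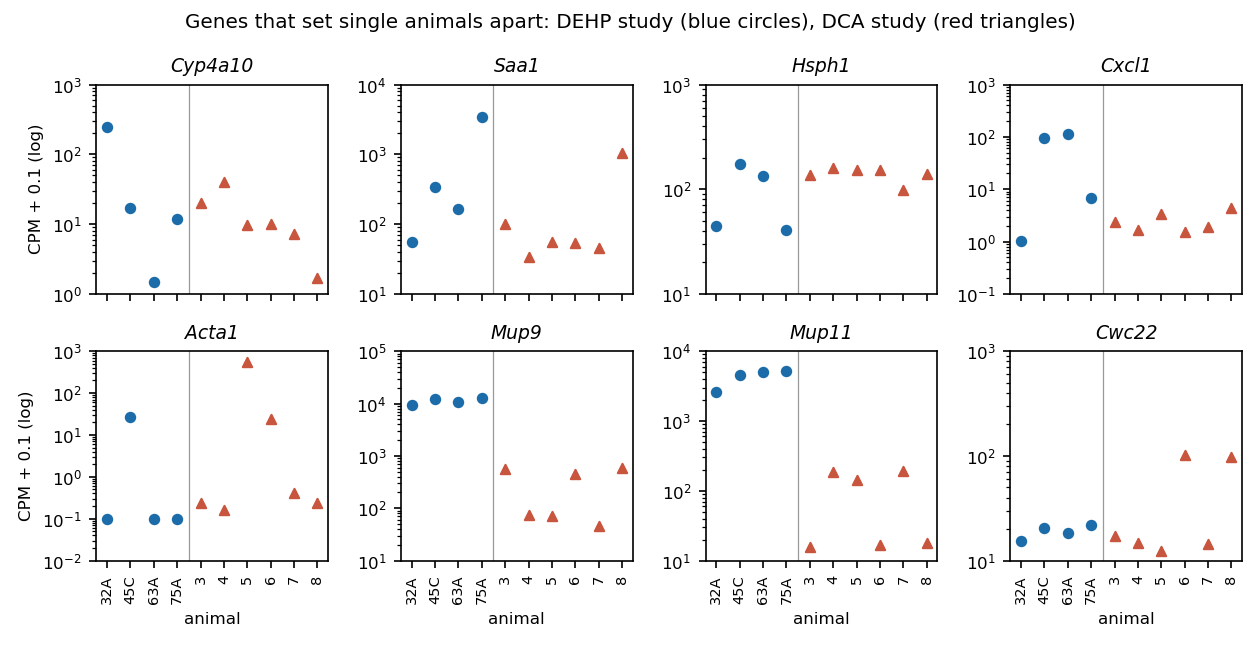
CPM plus 0.1 on a log axis of 8 genes in each frozen control liver (blue circles, DEHP study; red triangles, DCA study). Cyp4a10 is high in 32A, Saa1 in 75A and 8, Hsph1 and Cxcl1 in 45C and 63A, and Acta1 in 45C, 5 and 6; in the DCA study Mup9 and Mup11 split animals 3, 6 and 8 from 4, 5 and 7, and Cwc22 splits 6 and 8 from the rest.

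The DCA-study controls split into the same sets of animals for several Mup genes. Mup9 was at 562, 72.8, 72.5, 450.2, 46.7 and 593 CPM and Mup11 at 15.7, 188, 143, 16.4, 192 and 18.1 CPM in animals 3 to 8, so that 3, 6 and 8 were high for the former and low for the latter. The same split, by a gap of at least 1 log2 unit, was shown by 11 genes, and 10 of these were Mup genes of chromosome 4, where 22 Mup genes lie in chr4:59956804-62150863. Animals 3, 6 and 8 were high for Mup1, Mup5, Mup9, Mup15, Mup16 and Mup17 and low for Mup7, Mup11, Mup14 and Mup20. The split was taken in the estimated counts alone, where reads of near-identical copies can be divided in several ways. For Mup7 the SD over the DCA-study controls was 1.04 there and 0.396 in the second tables, too small for such a split. In FFPE tissue Mup1, Mup9 and Mup14 did not keep the split and the other 7 did. The DEHP-study controls had Mup9 at 9582, 12183, 10647 and 12985 CPM and Mup11 at 2639.9, 4612, 4982 and 5129.9 CPM.

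A second split set animals 6 and 8 apart by at least 1 log2 unit in 7 genes, 3 of them on chromosome 2. Cwc22, a splicing factor (chr2:77881159-77946375), was at 16.9, 14.6, 12.3, 103, 14.4 and 98.1 CPM in animals 3 to 8 and 15.4, 20.2, 18.2 and 21.6 CPM in the DEHP study. Fam171b, a membrane protein (chr2:83812636-83883486), was at 1.08, 1.12, 0.615, 7.98, 0.958 and 7.6 CPM, and the olfactory receptor Olfr1033 (chr2:86020633-86045171) was at 11, 9.97, 11.9, 0, 10.9 and 0 CPM. Animals 6 and 8 were thus high for Cwc22 and Fam171b and at 0 for Olfr1033. No treated frozen liver of either study reached 50 CPM of Cwc22, the highest of 18 DCA-study livers being at 20.4 CPM and of 12 DEHP-study livers at 24.0 CPM. In FFPE tissue Cwc22 was at 82.9 CPM in animal 6 and 15.8 CPM in animal 8, both above the other 4 DCA-study animals (0 to 12.4 CPM), animal 8 by far less than in frozen tissue. The protease inhibitor murinoglobulin 2 (Mug2, chr6:122006761-122085965) was low in animal 8 alone, at 35.3 CPM against 604 to 787 CPM in the other 5, and at 42 CPM against 127 to 324 CPM in FFPE tissue. All 18 treated frozen livers of the DCA study had at least 256 CPM of Mug2.

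FFPE tissue of the same 10 animals offers a separate preparation of each liver, though its blocks differ between the studies in the same confounded ways and the FFPE libraries of animals 3 and 5 hold 74.4% and 73.4% of their counts in the ribosomal RNA gene Rn45s. Of 11063 genes tested there, 413 were called (3.73%), 73 higher and 340 lower in the DCA study (0.660% and 3.07%). Of the genes called between frozen livers in both sets of tables and past 2-fold, 91 were tested in FFPE; 88 had the same sign (96.7%, beside 70.3% of all 11025 genes tested in both preparations) and 32 were called the same way (35.2%, beside 3.47%). Cyp3a11 differed by 2.27 ± 0.33 in FFPE (adjusted p = 0.00115), Mup20 by -3.34 ± 0.48 (adjusted p = 0.00118), Col3a1 by 1.98 ± 0.34 (adjusted p = 0.00453), Hba-a2 by 2.23 ± 0.29 (adjusted p = 0.00054) and Igfbp1 by -2.20 ± 0.53 (adjusted p = 0.0292). Moxd1 at -3.66 ± 1.09 (adjusted p = 0.0888), Mki67 at 2.50 ± 0.83 (adjusted p = 0.133) and Fkbp5 at 1.49 ± 0.51 (adjusted p = 0.148) had the same sign and gave no call, in a fit that recovered few 2-fold and a minority of 4-fold changes on simulated data. Albumin did not keep its direction, with -0.20 ± 0.20 (adjusted p = 0.764). The FFPE libraries stand in the same estimated count tables as the frozen ones, and Slc38a6, which the second tables did not call, was at -5.95 ± 0.43 in FFPE as well.

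Between neighbouring animals of 1 study, 43 genes had a gap of at least 2 log2 units in the DEHP study and 49 in the DCA study. In FFPE tissue 37 of the 43 kept the same split of animals (86.0%, beside 65.6% of all 10616 genes by their own largest gap), and 18 of the 49 did (36.7%, beside 17.6% of 10570). The share was lower in the DCA study, whose FFPE libraries held 2167547 to 8434617 counts, against 13977952 to 17944972 in the DEHP study, and whether depth accounts for it was not tested.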

How the data were processed

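Liver RNA of 10 untreated frozen samples was compared, with FFPE libraries of the same animals beside them. Libraries were made from 100 ng of total RNA with a stranded kit that removes ribosomal RNA, per the labels' protocols. The submitters' processing notes name CASAVA, RSEM, STAR 2.4 and the build mm10, with no order or settings. The authors deposited estimated counts per gene (RSEM expected counts, not normalized), which were rounded to whole numbers here, and matching FPKM values, used here only to set levels of different genes side by side. The deposited second tables hold raw counts per gene and served as an alternative; how they were made is not given in the sources used here. Each column was tied to its library through the animal and preparation that its name gives. Deposited RPKM tables were not used here.

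The studies were joined over the 16554 shared symbols and fitted with edgeR 4.0.16 under R 4.3.3, using TMM factors, after filterByExpr at a minimum count of 10, by the 2-sided quasi-likelihood test with Benjamini-Hochberg adjustment over all genes tested and a threshold of 0.05. A test against a 2-fold difference used glmTreat. SEs were taken from the F statistic, as the absolute log2 fold change over its root. The test of spread used limma 3.58.1 on absolute deviations of log2 CPM (prior count 2) from the group mean, scaled for group size. FFPE controls were fitted like frozen ones. Lists were described by counts and medians with no test of their own, and some genes belong to several lists. The fits were tested on simulated data: the frozen fit recovered most 2-fold changes, while the FFPE fit and the test of spread missed most of the changes put in. Animals are separate samples of a group, and the p-values measure the spread between them.

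Genes were named by a rule: the 12 largest differences per direction without overlap between the studies (called, mean log2 CPM 3 or more), in each list the 4 called genes with the lowest adjusted p, the most variable genes, those of smallest p in the test of spread, the genes of highest FPKM and a fixed set of liver genes, passing over predicted-gene and clone symbols. Named beyond it, after their values were seen, were Acot1, Acta1, Akr1e1, Bcl6, Ccnb2, Cdc20, Cdk1, Creld2, Cwc22, Cyp2c55, Ehhadh, Fam171b, Hspa5, Hsph1, Mug2, Mup1, Mup16, Neb, Onecut1, Peg3, Socs2 and Top2a. The members and lists were chosen with earlier results of these data known. Gene coordinates, strands and types are those of GENCODE M21, and promoters those of RefSeq on GRCm38.p6, both on the assembly of mm10.

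The alternatives replaced the test (DESeq2 1.42.0), the scaling (upper-quartile or DESeq2 size factors) or the filter (none, or 1 CPM and 10 counts in 4 libraries). Others were the second tables, thinned counts, removal of Rn45s and clone rows, a fit of all 40 frozen libraries, the DEHP-study controls of 1 run at a time, an adjusted p under 0.01, squared deviations and leaving out each library. Calls shared by both sets of tables, list counts under each alternative, and fits without animals 6 and 8 or, in FFPE, 3 and 5 were chosen after seeing the data.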

Additional observations from a re-analysis of the deposited data

Results flagged for a closer look

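Among 260 groups of values of 1 gene in 1 study, 20 held a highest or lowest animal set apart from the rest by most of the group's range on the log2 scale (Dixon's criterion). Chance sets apart about 1 in 20 such groups, and many of these genes were named because they vary.

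Muscle genes accounted for several. In DCA-study animal 5, the muscle filament gene Des was at 65.3 CPM with the next at 4.84 and Neb, the nebulin of thin filaments, at 795 with the next at 156. Col1a2 was highest in the same animal, at 91.5 CPM. In the DEHP study 45C was highest for Ttn (403 CPM) and Des (8.1 CPM).

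Animal 8 of the DCA study was highest for Saa1 (1027 CPM), Saa2 (1034 CPM, the next animal at 34.7) and Lcn2 (199 CPM), and lowest for Mug2 (35.3 CPM), Cyp2b9 (0.0697 CPM) and Cyp2c55 (2.44 CPM). Animal 7 was lowest for Hsph1 (97.5 CPM) and Peg3 (9.32 CPM) and highest for Me1 (117 CPM). In the DEHP study 32A was lowest for the aldo-keto reductase Akr1e1 (9.3 CPM) and for Mup11 (2639.9 CPM) and highest for Tyms (56.1 CPM). Fam171b was lowest in 45C (0.339 CPM). Cyp2b10 in 45C (0.113 CPM) and Cyp2b9 in 63A (0.119 CPM) were set apart by 3 reads each from libraries at 0.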

How the results depend on the processing

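The count of 4310 called genes was 2397 at an adjusted p under 0.01 and 2793 when both sets of tables had to give the call, and it ran from 3549 to 4246 when each library was left out. It was 3973 with 32A and 75A alone as DEHP-study controls and 3055 with 45C and 63A alone. The 383 genes past 2-fold became 215 in the second tables and 137 when called the same way in both, and ran from 357 to 381 without each library. The 71 genes of differing spread became 165 with no filter and 41 with squared deviations, and ran from 3 to 67 without each library. Without 1 library of the DCA study the count was 45 without animal 4, 47 without 5, 27 without 6 and 44 without 8. The median SD of the DEHP study was 0.264 with no filter and ran from 0.195 to 0.234 without each library, and that of the DCA study was 0.245 with no filter, 0.181 with the stricter filter and 0.174 to 0.191 without each library. The 413 genes called between FFPE controls became 873 with DESeq2, 256 with no filter and 1003 without animals 3 and 5, and ran from 153 to 867 without each library. The causes were not tested.

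Of 91 named fold changes under 22 alternatives, 1903 of 1997 values kept their direction and side of the threshold, 91 kept the direction and lost the call, and 3 turned, all in the second tables: Slc38a6 to 0.069, Rora to -0.17 and Tyms to 0.42. The call of 14 genes was lost without some single library and that of 23 under another alternative. Other scalings moved the median of all genes by at most 0.0327. Higher genes made up 48.58% of the calls, 48.31% with DESeq2 size factors and 53.99% with upper-quartile factors, where the balance turned (2321 higher, 1978 lower); with no filter the share was 45.56%. Of 21 list counts recomputed, those that moved by more than 1.5 times, beside values given with the results, were bile acid genes called lower (6, and 3 with 45C and 63A alone), antigen presentation genes called lower (7, then 4 without 63A and 3 with 32A and 75A alone), and interferon response genes called lower (4, then 2 without any 1 of 45C, 75A, 4, 5 or 6, without 6 and 8, and with 32A and 75A alone). Without animals 6 and 8, 5 fatty acid synthesis genes and 2 fasting genes were lower. No paired analysis was possible because the animals of the studies share no number. Depth limits genes near 1 CPM, since the smallest library holds 14539642 counts, and the size of each group, 4 and 6, limits every statement on spread. DESeq2 gives no test against a fold, so no such value was computed.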

Other observations

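Of 15 tested genes of gluconeogenesis and amino acid breakdown, 9 were higher and 1 lower in the DCA-study controls (8 and 1 in both sets of tables, 4 higher with 45C and 63A alone; the shares over all genes were 16.7% and 17.7%). The argininosuccinate synthase Ass1 was at 1402, 1518, 1919.8 and 1089 CPM against 1901 to 2887 CPM, median 2436 (0.70 ± 0.16, adjusted p = 0.00633), and the alanine aminotransferase Gpt differed by 0.77 ± 0.12 (adjusted p = 0.000772). The gene that was lower is Igfbp1, which insulin represses and which breaks down no amino acid. Of 16 tested bile acid genes 0 were higher and 6 lower in both sets, 37.5% called beside 34.4% of all genes. The uptake carrier Slco1b2 was at 1867, 1423, 1174 and 1432 CPM against 834 to 1019 CPM, median 939 (-0.66 ± 0.12, adjusted p = 0.00159) and the phospholipid exporter Abcb4 at 395, 238, 197 and 288 CPM against 165 to 188 CPM, median 178 (-0.66 ± 0.15, adjusted p = 0.00697), both without overlap. Cyp7a1, which starts the classic route from cholesterol to bile acids, gave no call (-0.35 ± 0.22, adjusted p = 0.23).

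Of 18 genes of antigen presentation 7 were lower and 1 higher (5 and 1 in both sets), among them beta-2-microglobulin (B2m), the shared light chain of class I molecules, at 990.5, 898, 952 and 1033 CPM against 653 to 782 CPM, median 711.6 (-0.45 ± 0.08, adjusted p = 0.00198). Of 31 interferon response genes 4 were lower and 1 higher (3 and 0). The shares called were 44.4% for antigen presentation and 16.1% for interferon response, beside 34.4% of all genes. Of 4 Y chromosome genes tested 3 were lower, in both sets of tables, and Kdm5d gave no call (75% called, beside 34.4% of all genes). Beside Ddx3y, the translation factor Eif2s3y differed by -0.70 ± 0.06 (adjusted p = 8.78e-06) and the demethylase Uty by -0.31 ± 0.08 (adjusted p = 0.0141). Among cold-inducible RNA-binding genes, Cirbp was at 7.46, 3.84, 4.7 and 8.8 CPM against 1.74 to 4.38 CPM, median 2.72 (-1.08 ± 0.27, adjusted p = 0.0102). The immunoglobulin J chain (Igj), a product of plasma cells, was at 1.74, 1.02, 1.98 and 2.8 CPM against 0.0672 to 0.785 CPM, median 0.301, lower without overlap (-2.41 ± 0.43, adjusted p = 0.00147); the summed lymphocyte list was 22.9 to 31.8 CPM against 18.05 to 23.6 CPM. Counts for ribosomal protein genes depended on the tables, with 4 higher and 5 lower of 30 in the estimated counts and 4 and 0 in both sets. The share called was 30% in the estimated counts, beside 34.4% of all genes.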
